A study of Mus musculus with 8 samples.

Results

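The clustered protocadherins are cell-surface proteins of the cadherin superfamily that neurons use as a molecular identity tag. Their genes were taken from the deposited read counts as every protein-coding gene whose symbol begins with *Pcdha*, *Pcdhb* or *Pcdhg*, with 1 transcript for each gene. This gave 39 of the 38031 genes counted, namely 8 of the alpha cluster, 22 of the beta cluster and 9 of the gamma cluster. The annotation lists 14 alpha, 22 beta and 21 gamma gene models, so the beta cluster was complete, and the 6 alpha and 12 gamma models left are not analysed here as genes of their own. The libraries were made from total RNA of primary motor cortex (M1) of male Swiss Webster mice. Mice received a lentivirus into M1 at postnatal days 21 to 25, and tissue was taken at postnatal days 49 to 53. The 4 *Fezf2 shRNA* samples had a virus with a short hairpin RNA against *Fezf2*, a zinc finger transcription factor of layer 5 projection neurons, and the 4 control samples had the same kind of virus with a *non-silencing shRNA*. Both viruses also carried the red fluorescent reporter mCherry, and the *Synapsin I* promoter, which is active in neurons, drove reporter and hairpin together. M1 was cut out by its mCherry signal with all layers and the meninges, so cells without virus were in every sample, and each treatment rests on 1 hairpin. In such bulk tissue fewer cells of a type and less RNA per cell cannot be told apart.

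In the alpha and gamma clusters, each variable first exon has its own promoter and is spliced to a small set of constant exons that the whole cluster shares, whereas a beta gene is a single exon that codes for a whole protein. Most promoters of the clusters are chosen at random in each neuron, through looping by the insulator protein CTCF and cohesin and through DNA methylation, and the C-type members at the downstream end of the alpha and gamma clusters are expressed more constantly. The proteins bind their own kind across cell contacts, and in the brain they are known for dendrite self-avoidance, axon tiling, and the survival and synapses of neurons.

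The 3 clusters lie in tandem on the plus strand of chromosome 18 (GRCm38). The counted members run from 36930285 to 37187657 in alpha, from 37264938 to 37521145 in beta and from 37674307 to 37841873 in gamma. Annotated gamma genes that start upstream of *Pcdhga3*, the first gamma member counted, lie outside these bounds. Each counted alpha and gamma transcript has 4 exons, a first exon of its own and 3 constant ones. Of the beta transcripts, 21 have 1 exon and that of *Pcdhb22* has 2. The counts cover whole genomic intervals, introns included, and the 8 alpha intervals all run to the same end, as do the 9 gamma intervals apart from *Pcdhga9*, which ends 3 bases earlier. The interval of *Pcdha1* therefore contains those of the other 7 alpha members, and in each of the 15 nested pairs the wider interval never had fewer reads than the narrower one, in 8 of 8 libraries. For this reason the members of the alpha cluster, and those of the gamma cluster, are not independent measurements. The annotation gives the symbol *Pcdha11* to 2 gene models, which are called upstream and downstream *Pcdha11* here.

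Total counts were 54684016 to 58003814 per library. *Fezf2* itself had 688, 767, 735 and 702 normalized counts in controls and 621, 583, 568 and 592 with *Fezf2 shRNA*, so the treatments did not overlap (two-sided exact permutation test, p = 0.0286, the smallest that 4 against 4 allows). The fold change of *Fezf2 shRNA* over control on the log2 scale (log2 FC, given ± its standard error from edgeR's quasi-likelihood test) was -0.29 ± 0.0781, and its adjusted p of 0.0824 was above the threshold of 0.05. All 9 neuronal marker genes examined, 6 of 7 astrocyte markers and 6 of 7 oligodendrocyte markers were above the detection filter used below, and 0 of 7 markers of ependyma and choroid plexus exceeded 8 CPM (counts scaled to a common library total) in at least 4 libraries. Summed over 7 genes, oligodendrocyte markers were at 61591 to 111708 normalized counts in controls and 45873 to 75266 with *Fezf2 shRNA*, with a median log2 FC of -0.53 over the 6 tested. Microglial markers were at 9726 to 13206 and 12450 to 25178. Of the 42 markers tested from 8 cell type lists, 0 passed the threshold in edgeR, 10 had an unadjusted p under 0.05 and 4 passed in DESeq2, among them *Fezf2*. Of all 9959 genes over 8 CPM, 19.6% had such a p and 7.55% passed in DESeq2. The part of these cells in the values below was not tested.

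The hairpin was compared with the members to see how much of its sequence they share. It is shown as the 19-nt sense sequence, followed by its antisense strand with the longest stretch shared with any of the 39 member transcripts in capitals, 10 nt in *Pcdhb11*, and by the sense strand with the 9 nt it shares with *Pcdhb16* in capitals.
Fezf2 shRNA, sense: gggaactacaagaatcaca
antisense, against Pcdhb11: tgTGATTCTTGTagttccc
sense, against Pcdhb16: gggAACTACAAGaatcaca
The longest sense match to any member was 9 nt, and the shortest match of either strand was 6 nt. No member held the whole 19-nt target.

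No clustered protocadherin changed past the threshold in any of the 3 clusters. The threshold was an adjusted p of at most 0.05 with a log2 FC of 0.2 or more in either direction. With the study's filter of over 8 CPM in at least 4 libraries, 20 members were tested, namely the 8 alpha, the 9 gamma and 3 of the 22 beta genes (*Pcdhb16*, *Pcdhb17* and *Pcdhb19*), and 0 passed, where 2.09% of all 9959 genes tested did. Of these 20, 3 had an unadjusted p under 0.05, all in the alpha cluster, where 19.6% of all genes did. With over 1 CPM in at least 4 libraries, 38 members were tested (all but *Pcdhb1*), and again 0 passed, where 0.510% of 16481 genes did. An unadjusted p under 0.05 was reached by 2 alpha, 1 beta and 0 gamma members in that wider test, compared with 15.9% of all genes. DESeq2, another count model, also placed 0 members past the threshold with either filter, where 7.55% of all genes over 8 CPM passed. In the wider test it gave no adjusted p for *Pcdhb8* and *Pcdhb9*, so these could not pass. Fold changes of members below are those of the wider test, and the adjusted p values are Benjamini-Hochberg values over all its genes.

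**Figure D1:**
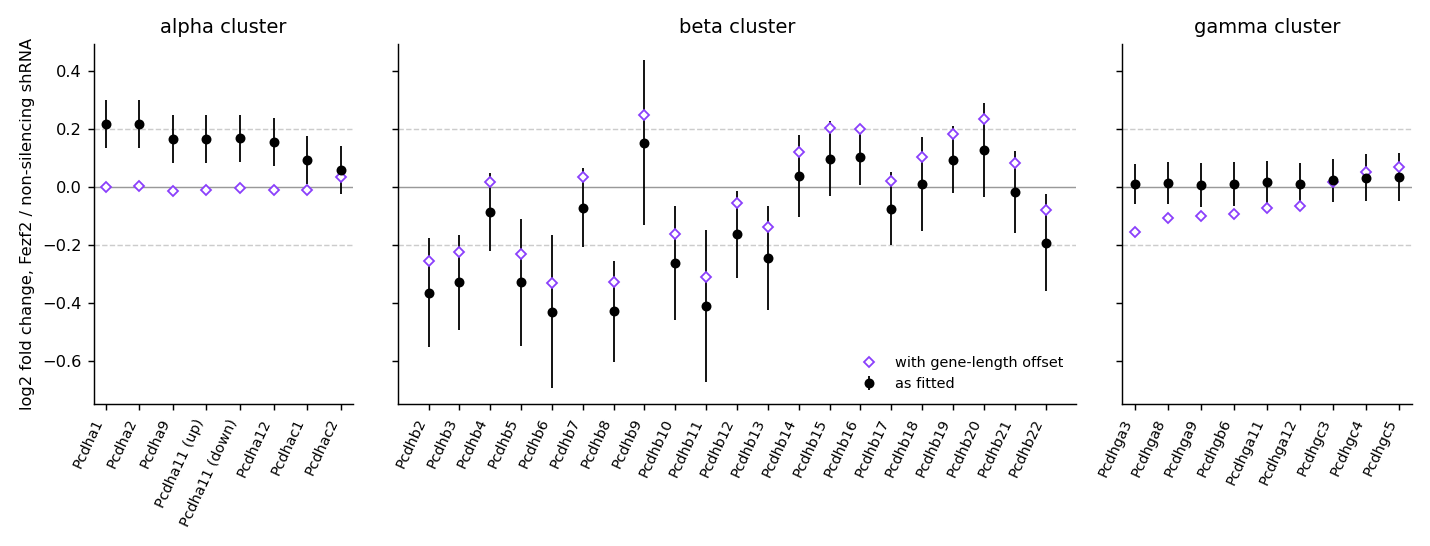
Log2 FC of the 38 members tested, in chromosome order within each cluster, as fitted by edgeR (black circles, bars are standard errors) and with a correction for gene length (open diamonds); dashed lines mark 0.2 and -0.2. Alpha members step down from 0.22 to 0.06 as fitted and lie at -0.01 to 0.03 with the correction, beta members range from -0.43 to 0.15, and gamma members lie at 0.01 to 0.04 as fitted and at -0.15 to 0.07 with the correction.

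The beta genes were the only members with counted intervals that do not overlap each other. A sequence of 100 bases from a beta transcript was found in another member's transcript for at most 2.31% of its positions, and for 11 of the 22 genes at none. With sequences of 50 bases the share was up to 11.99%, with a median of 3.65% over the beta genes, so some reads could fit 2 of them equally well. For the alpha and gamma transcripts, which end in shared constant exons, the share with 100 bases was 47.8% to 58.3% and 40.6% to 44.5%. Per kilobase, *Pcdhb17* had the highest level of the beta genes with 2.39 ± 0.313 CPM per kb (SD over 8 libraries), followed by *Pcdhb19* with 1.94 ± 0.232, *Pcdhb16* with 1.94 ± 0.175 and *Pcdhb7* with 1.86 ± 0.254. *Pcdhb17* was above *Pcdhb16* and *Pcdhb7* in 8 of 8 libraries and above *Pcdhb19* in 7 of 8, whereas the levels of *Pcdhb19*, *Pcdhb16* and *Pcdhb7* lie within each other's SD. At the low end, *Pcdhb8* was at 0.610 ± 0.115 CPM per kb and *Pcdhb14* at 0.681 ± 0.0927. *Pcdhb1* stood far below all other members, at 0.0403 ± 0.0250 CPM per kb. It is the first gene of its cluster and one of the few whose promoter lacks the sequence element shared by the other promoters.

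*Pcdhb1* (37264938 to 37267525) had 4, 8, 8 and 7 raw counts in the control libraries and 2, 11, 7 and 0 with *Fezf2 shRNA*. The treatments overlap, and a difference was not detectable at this depth. A count of 0 allows up to 3 counts in that library.

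*Pcdhb19*, the beta gene with the most reads (37496991 to 37504128), had 693, 832, 869 and 629 normalized counts in controls and 850, 694, 836 and 846 with *Fezf2 shRNA*. Its log2 FC was 0.09 ± 0.116 (SE, adjusted p = 0.725). *Pcdhb17* (37484795 to 37489454) had 752, 663, 653 and 502 normalized counts in controls and 697, 614, 541 and 588 with *Fezf2 shRNA*, a log2 FC of -0.08 ± 0.126 (SE, adjusted p = 0.803). For both genes the highest and the lowest control enclose all 4 *Fezf2 shRNA* libraries. *Pcdhb16* (37477814 to 37483038) had 586, 587, 504 and 520 normalized counts in controls and 622, 511, 593 and 636 with the knockdown virus, a log2 FC of 0.10 ± 0.0986 (SE, adjusted p = 0.628). Here too the treatments overlapped.

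The beta genes with the smallest p all had fewer reads with *Fezf2 shRNA*, and none passed the threshold. *Pcdhb8* (37355271 to 37358604) had 117, 138, 141 and 130 normalized counts in controls and 109, 99.9, 104 and 76.7 with *Fezf2 shRNA*. It was the only member of any cluster in which the treatments did not overlap, as was the case in this direction for 3.76% of all genes. Its log2 FC was -0.43 ± 0.174 (SE), with an unadjusted p of 0.0309 and an adjusted p of 0.268 in edgeR, and an exact permutation p of 0.0286. It ranged from -0.49 to -0.33 as each library was left out in turn. *Pcdhb3* (37300799 to 37304585) had 259, 273, 311 and 216 normalized counts against 267, 194, 204 and 179, a log2 FC of -0.33 ± 0.164 (SE, adjusted p = 0.350). *Pcdhb2* (37294812 to 37297624) had 248, 282, 236 and 177 against 219, 148, 154 and 212, a log2 FC of -0.37 ± 0.188 (SE, adjusted p = 0.361). In *Pcdhb3* 1 *Fezf2 shRNA* library and in *Pcdhb2* 2 of them lay above the lowest control. With a correction for gene length given further on, *Pcdhb8*, *Pcdhb3* and *Pcdhb2* were at -0.33, -0.23 and -0.26. Their unadjusted p values in edgeR were then 0.0794, 0.194 and 0.220.

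**Figure D2:**
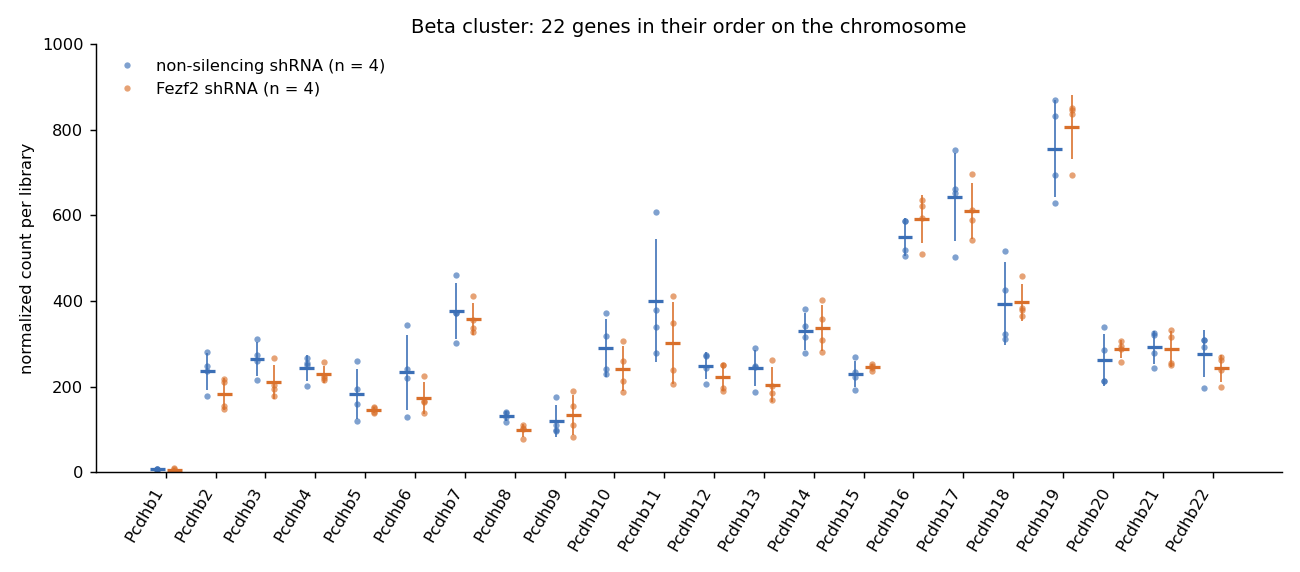
Normalized counts of the 22 beta genes in each library, in chromosome order, with non-silencing shRNA in blue and Fezf2 shRNA in orange; points are libraries, short horizontal lines are means and vertical lines are SD (n = 4 per treatment). Points of both treatments overlap in every gene but *Pcdhb8*, and *Pcdhb1* lies near 0.

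Across the 21 beta genes tested, log2 FC values ran from -0.43 (*Pcdhb6* and *Pcdhb8*) to 0.15 (*Pcdhb9*), with a median of -0.09 and 14 of 21 below 0 (median 0.02 with the correction for gene length). Over all genes tested the median was -0.03 and 55.7% lay below 0. Among the 375 other protein-coding genes with a single exon, the class closest in structure, the median was -0.12 and 73.9% lay below 0, so the beta median was not below that of its class. *Pcdhb6* and *Pcdhb11*, with log2 FC values of -0.43 and -0.41, had standard errors of 0.263 and 0.264. In *Pcdhb11* the control libraries alone ran from 279 to 607 normalized counts. Summed over the 22 genes, the beta cluster had 7093, 7305, 6848 and 5592 normalized counts in controls and 6886, 5999, 5963 and 6397 with *Fezf2 shRNA*, which is 6709 ± 768 and 6311 ± 431 (SD, n = 4 each). The log2 ratio of -0.09 is smaller than the spread between libraries, which was 0.14 on the same scale.

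The position within the cluster went along with the direction, in a split chosen after the values were seen and thus given without a test. From *Pcdhb2* to *Pcdhb13*, 11 of 12 genes had a log2 FC below 0, with a median of -0.30. From *Pcdhb14* to *Pcdhb22*, 3 of 9 did, with a median of 0.04. *Pcdhb9* was the exception in the upstream stretch, with 96.2, 110, 99.1 and 176 normalized counts in controls and 111, 189, 154 and 81.7 with *Fezf2 shRNA*, and a standard error of 0.285. With the correction for gene length these medians were -0.19 and 0.12.

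In the alpha cluster all 8 members had a log2 FC above 0 as fitted, with a median of 0.17, and of -0.01 to 0.03 with a correction for gene length given further on. They share most of their reads. *Pcdha1*, the widest interval at 257.4 kb, had 6522, 7215, 6315 and 5762 normalized counts in controls and 7657, 6797, 8185 and 7375 with *Fezf2 shRNA*. Only *Fezf2 shRNA* replicate 2 and control replicate 2 cross between the treatments. The means were 6453 ± 601 and 7504 ± 578 (SD, n = 4 each), the log2 FC was 0.22 ± 0.0823 (SE), the unadjusted p 0.0227 and the adjusted p 0.241. *Pcdha2*, which starts next, repeats these reads almost whole and had a log2 FC of 0.22 ± 0.0837 (SE, adjusted p = 0.248). *Pcdha9* followed with 0.17 ± 0.0839 (SE, adjusted p = 0.355) and downstream *Pcdha11* with 0.17 ± 0.0814 (SE, adjusted p = 0.337).

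The C-type members of the alpha cluster, which are expressed more constantly across neurons, have its narrowest intervals. They had the lowest log2 FC values of the cluster as fitted. With the correction for gene length *Pcdhac1* was at -0.01 and *Pcdhac2* at 0.03, the highest of the cluster. *Pcdhac1* (37090013 to 37187657) had a log2 FC of 0.09 ± 0.0841 (SE, adjusted p = 0.605). *Pcdhac2*, a C-type isoform known for the tiling of serotonergic axons (37143503 to 37187657), had 3976, 4507, 3516 and 3497 normalized counts in controls and 4058, 3926, 4223 and 3934 with *Fezf2 shRNA*. Its log2 FC was 0.06 ± 0.0834 (SE, adjusted p = 0.762), and all *Fezf2 shRNA* libraries lay between the lowest and highest control. Along the cluster the log2 FC was thus 0.22 for the widest pair, 0.16 to 0.17 for the next 4 intervals, and less for the C-type pair.

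In these libraries fold changes moved with the span of the interval for genes at large. The median log2 FC was -0.10 for 5296 genes under 10 kb, 0.02 for 4265 genes of 30 to 100 kb, 0.15 for 1626 genes of 100 to 300 kb and 0.29 for 435 genes over 300 kb. Alpha members of 100 kb or more had 0.16 to 0.22, which lies between the quartiles for genes of that span (0.05 to 0.26). When the trend with span was removed from each library, the 8 alpha members lay at -0.01 to 0.03. The gamma members did not move with span in this way. *Pcdhga3*, at 167.6 kb, had a log2 FC of 0.01, below the lower quartile of genes of its span, and it was at -0.15 after the correction (unadjusted p = 0.0364, adjusted p = 0.459).

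**Figure D3:**
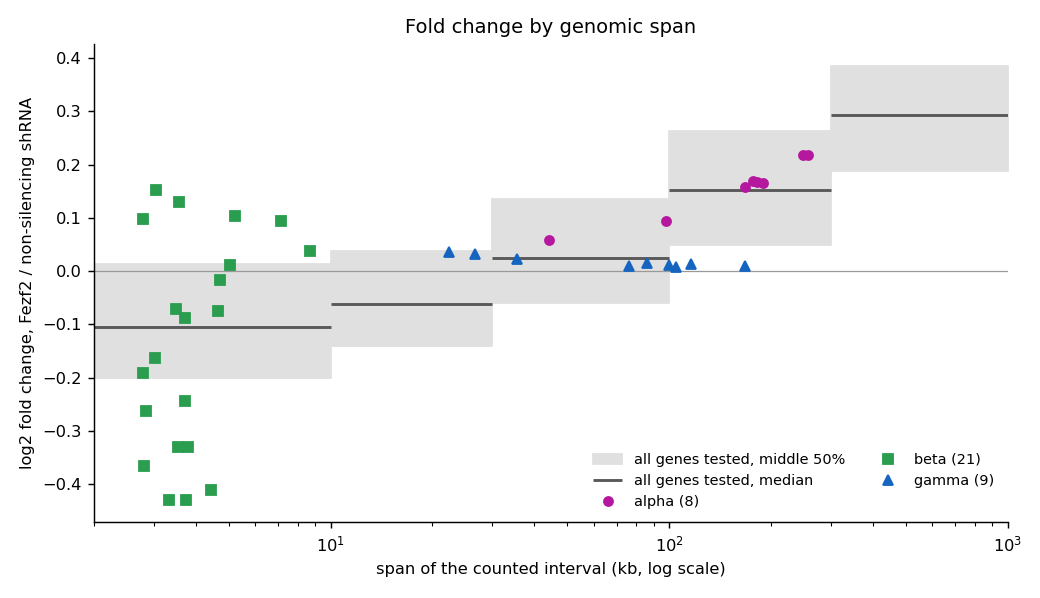
Log2 FC against the span of the counted interval (log axis) for the alpha, beta and gamma members; grey boxes are the middle 50% and dark lines the medians of all genes tested in 5 classes of span, the outer classes drawn to 2 and 1000 kb. Medians climb from -0.10 to 0.29, alpha members follow them, gamma members lie flat near 0.01 and beta members scatter at the short end.

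To separate the nested members, the reads of each interval were subtracted from those of the next wider one. What remains are reads that lie wholly between the start of one counted member and the start of the next, here called the segment of the first. Reads that run from a first exon into the constant exons are counted in the innermost segment, that of *Pcdhac2* or *Pcdhgc5*. A segment can hold the first exons of several annotated members, and it holds introns as well. In the test with 17 segments in place of the alpha and gamma members, 1 alpha and 0 gamma segments passed the threshold, where 0.515% of all 16490 genes and segments did. An unadjusted p under 0.05 was reached by 3 alpha and 0 gamma segments, where 15.9% of all genes and segments did. DESeq2, which gave no adjusted p for the *Pcdha1* segment, placed 2 alpha and 0 gamma segments past the threshold, where 5.42% of the 13931 genes and segments with an adjusted p passed.

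The segment that rose runs from the start of *Pcdha2* to the start of *Pcdha9* (36939205 to 36997879, 58.7 kb) and holds the first exons of 7 alternate alpha members, *Pcdha2* to *Pcdha8*. These exons and others annotated for the cluster make up 30.1% of its bases. The annotation also places other gene models there, such as the antisense *Gm38225* and *Gm37753*, whose reads cannot be told apart from those of the alpha members. It had 384, 270, 299 and 236 raw counts in controls and 466, 535, 688 and 651 with *Fezf2 shRNA*. Every *Fezf2 shRNA* library lay above every control. Normalized counts were 295 ± 61.8 and 590 ± 102 (SD, n = 4 each), a log2 FC of 1.00 ± 0.166 (SE, adjusted p = 0.0463 in edgeR; exact permutation test, p = 0.0286). Genes of 30 to 100 kb, the class of the segment's own length, had a median of 0.02. Genes of 100 to 300 kb, the class of the whole *Pcdha2* interval, had a median of 0.15. The fold change stayed between 0.89 and 1.14 when each library was left out, but the segment passed the threshold in only 2 of those 8 fits, namely those that lacked replicate 2 of either treatment, with adjusted p values of 0.0384 to 0.130. It also failed it with scaling to library totals (0.98, adjusted p = 0.0504) and with the correction for gene length (0.95, adjusted p = 0.165). For segments this correction used the length of the segment, not that of the transcripts that cross it. In DESeq2 it passed with an adjusted p of 4.13e-06. As a share of all reads of the alpha interval, the segment held 5.78%, 3.90%, 4.64% and 3.95% in controls and 6.16%, 7.94%, 8.44% and 8.91% with *Fezf2 shRNA*.

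Other alpha segments differed less. The *Pcdha12* segment (37020149 to 37090012), of which 3.54% is exonic, had 905, 868, 902 and 812 normalized counts in controls and 1356, 914, 1278 and 1200 with *Fezf2 shRNA*. The treatments did not overlap, although *Fezf2 shRNA* replicate 2 lay close to the highest control. Its log2 FC was 0.45 ± 0.112 (SE, adjusted p = 0.0998), and it passed in DESeq2 (adjusted p = 0.00978) and without *Fezf2 shRNA* replicate 2 (adjusted p = 0.0277). The downstream *Pcdha11* segment had 314, 371, 402 and 371 normalized counts in controls and 425, 413, 563 and 432 with *Fezf2 shRNA*, a log2 FC of 0.33 ± 0.126 (SE, adjusted p = 0.246). An antisense gene, *Gm10545* (37008868 to 37020679), contains this segment and never had fewer reads than it, in 8 of 8 libraries. It also reaches into the upstream *Pcdha11* segment and the start of the *Pcdha12* segment. The counts did not use strand, so reads of *Pcdha11* and its antisense partner cannot be told apart. The *Pcdha2*, *Pcdha12* and downstream *Pcdha11* segments were the 3 of 8 alpha segments without overlap, always with *Fezf2 shRNA* above. Across all genes and segments, 6.26% had no overlap in this direction.

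The segments of *Pcdha1*, *Pcdha9* and upstream *Pcdha11*, each with 1 first exon, had log2 FC values of 0.27, 0.13 and 0.12 with standard errors of 0.251, 0.179 and 0.210. The C-type segment of *Pcdhac1* was at 0.30 ± 0.157 (SE, adjusted p = 0.371 in edgeR), and that of *Pcdhac2* at 0.06 ± 0.0835 (SE, adjusted p = 0.762). Of the difference of 1051 normalized counts between the means of the whole alpha interval, 28.0% fell in the *Pcdha2* segment, 29.97% in that of *Pcdha12*, 13.3% in that of *Pcdhac1* and 15.4% in that of *Pcdhac2*, which includes the constant exons. The innermost interval held 61.0%, 62.5%, 55.7% and 60.7% of the alpha reads in controls and 52.99%, 57.8%, 51.6% and 53.3% with *Fezf2 shRNA*. The ranges overlap through control replicate 3 and *Fezf2 shRNA* replicate 2.

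**Figure D4:**
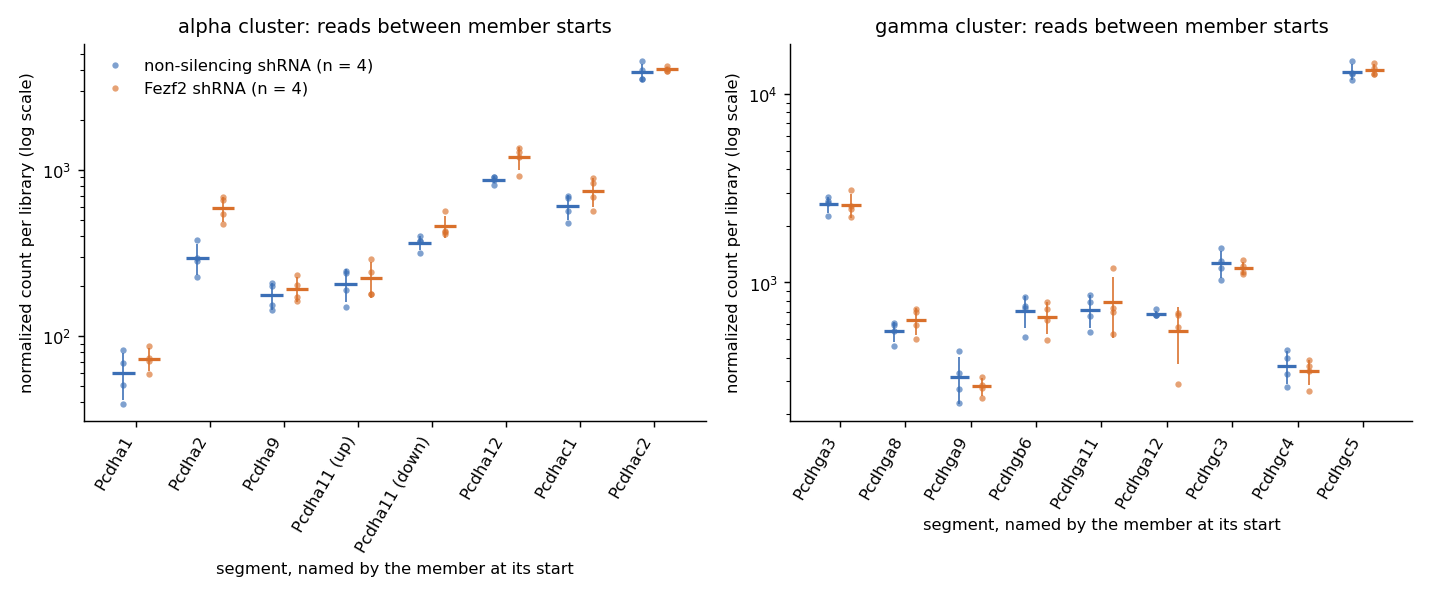
Normalized counts (log axes) of the 8 alpha and 9 gamma segments in each library, non-silencing shRNA in blue and Fezf2 shRNA in orange; points are libraries, horizontal lines are means and vertical lines are SD (n = 4 per treatment). The *Pcdha2* segment is at 228 to 377 in controls and 471 to 691 with *Fezf2 shRNA*, while the gamma segments overlap throughout.

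Gamma members had the most reads of the 3 clusters and log2 FC values of 0.01 to 0.04 with a median of 0.01, or -0.15 to 0.07 with the correction for gene length. *Pcdhga3*, the widest gamma interval, had 20456, 22263, 18899 and 19707 normalized counts in controls and 21166, 20908, 19611 and 20223 with *Fezf2 shRNA*. The means were 20331 ± 1436 and 20477 ± 701 (SD, n = 4 each), with a log2 FC of 0.01 ± 0.0706 (SE, adjusted p = 0.959). *Pcdhga8* and *Pcdhga9*, nested inside it, were also at 0.01, with standard errors of 0.0734 and 0.0752.

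*Pcdhgc5*, whose interval holds the constant exons of the cluster, had 12825, 14932, 11847 and 12904 normalized counts in controls and 13698, 14663, 12702 and 12744 with *Fezf2 shRNA*, a log2 FC of 0.04 ± 0.0839 (SE, adjusted p = 0.868). *Pcdhgc4*, the isoform known for its role in the survival of cortical interneurons, was at 0.03 ± 0.0810 (SE, adjusted p = 0.877), and *Pcdhgc3*, which is known to bind Axin1 and to act on dendrite branching, at 0.02 ± 0.0756 (SE, adjusted p = 0.906). All *Fezf2 shRNA* libraries lay within the range of the controls for each of these C-type members. Per kilobase of interval, *Pcdhgc5* had 10.6 ± 0.841 CPM per kb (SD over 8 libraries), compared with 1.59 ± 0.135 for *Pcdhac2*, the corresponding innermost interval of the alpha cluster. These intervals differ in length (22.4 and 44.2 kb) and in exonic share (34.1% and 16.4%). Both hold constant-exon reads of their whole cluster, so the values do not compare the isoforms themselves.

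Taken apart into segments, gamma log2 FC values ran from -0.30 to 0.19, and 6 of 9 were below 0. The *Pcdhga8* segment had the smallest p, with a log2 FC of 0.19 ± 0.132 (SE, adjusted p = 0.497). The *Pcdhga12* segment followed with -0.30 ± 0.213 (SE, adjusted p = 0.508). *Fezf2 shRNA* replicate 1 stood alone there with 285 raw counts, where the other 7 libraries had 573 to 736, and the same library had 1175 in the neighbouring *Pcdhga11* segment, where the others had 527 to 825. Without it the log2 FC of the *Pcdhga12* segment was -0.08. The *Pcdhga9* segment was at -0.17 ± 0.183 (SE, adjusted p = 0.684). The segment of *Pcdhgc3*, which has its own first exon, had the highest level outside the constant exons, at 2.53 ± 0.313 CPM per kb, and a log2 FC of -0.08 ± 0.112 (SE). The innermost gamma interval held 64.5% ± 2.17 of the reads of the *Pcdhga3* interval in controls and 65.7% ± 3.09 with *Fezf2 shRNA* (SD, n = 4 each).

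The genes known to act on or with the clustered protocadherins were examined as 4 lists, in the test with over 8 CPM. Of 11 genes of CTCF and cohesin, the machinery that brings promoters and enhancers of the clusters together, 0 passed the threshold in edgeR or DESeq2, 4 had an unadjusted p under 0.05, and the median log2 FC was -0.01. In that test 19.6% of all genes had an unadjusted p under 0.05. The 4 genes split in direction, with *Smc1a* and *Rad21* (log2 FC -0.13) lower and *Stag1* (0.18) and *Nipbl* (0.15) higher. With the correction for gene length they were at -0.17, -0.098, -0.061 and -3.5e-05 in that order. The smallest p was that of *Smc1a*, a ring subunit of cohesin, with 2880 ± 158 normalized counts in controls and 2588 ± 114 with *Fezf2 shRNA* (SD, n = 4 each) and a log2 FC of -0.15 ± 0.0628 (SE, adjusted p = 0.215 in edgeR). Of 13 genes of silencing and DNA methylation, 11 were tested, 0 passed in edgeR or DESeq2 and 2 had an unadjusted p under 0.05, with a median of 0.02. *Dnmt1*, the maintenance DNA methyltransferase, had the smallest p, with a log2 FC of -0.17 ± 0.0690 (SE, adjusted p = 0.219).

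Of 21 signalling and actin partners, 20 were tested and 1 was higher, where 1.96% of all genes were. In DESeq2 3 passed, with *Fyn* and *Wasf1*, where 7.55% of all genes did. *Nlgn1*, a postsynaptic adhesion protein, rose from 34019 ± 2563 to 48688 ± 4353 normalized counts (SD, n = 4 each), a log2 FC of 0.52 ± 0.0863 (SE, adjusted p = 0.0276). The median of the list was 0.03. Of 21 non-clustered protocadherins and large cadherins, 16 were tested and 1 was higher (2 in DESeq2, with *Pcdh9*, against the same 7.55%), namely *Pcdh15*, an adhesion protein known from the tip links of hair cells. It rose from 2383 ± 353 to 3543 ± 456 normalized counts (SD, n = 4 each), a log2 FC of 0.57 ± 0.1169 (SE, adjusted p = 0.0356), and the median of the list was 0.06. *Nlgn1* and *Pcdh15* span 702 and 813 kb, and with the correction for gene length they were at 0.18 and 0.23 and no longer passed (adjusted p = 0.310 and 0.519). Of the 8 fits with a library left out, *Nlgn1* passed without control replicate 2 or 3 or *Fezf2 shRNA* replicate 2 and had adjusted p values of 0.0638 to 0.0998 in the others. *Pcdh15* passed without control replicate 2 or 3 and had 0.0558 to 0.114 in the others. Genes over 300 kb passed the threshold in 22.1% of cases.

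Of the 32 other protein-coding genes within 500 kb of the clusters or between them, 20 were tested, 0 passed the threshold in edgeR or DESeq2 and 6 had an unadjusted p under 0.05, with a median log2 FC of -0.10 and 6 of 20 above 0. All genes tested over 8 CPM had a median of -0.03, and 19.6% of them had such a p. Most of the neighbours tested span under 30 kb. In the same test genes under 10 kb had a median of -0.12, and genes of 10 to 30 kb had -0.07.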

How the data were processed

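Total RNA of 8 M1 samples (TruSeq stranded kit, paired ends) was sequenced. The authors aligned reads to mm10 (GRCm38) with TopHat2 2.1.1 counted the alignments over the genomic interval of each Ensembl transcript (BEDTools multiCov), and deposited these raw counts unnormalized. Strand was not used in these counts. The deposited table of the authors' own comparisons was not used.

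Of 94647 transcripts, 91320 were found in GENCODE M21, and the remaining 3327 held 1.82% of counts. The transcript with the lowest Ensembl number stood for each of 38031 genes, and each member had 1 counted transcript. Genes and segments were tested in edgeR 4.0.16 under R 4.3.3 with TMM factors, the quasi-likelihood test, no covariate and Benjamini-Hochberg adjustment. A normalized count is the raw count scaled to the average effective library size. Figures and exact tests used Python 3.11.15. Alternatives were DESeq2 1.42.0 or its size factors, library totals, TMM leaving out the 10 most counted genes, no filter, the widest transcript, a replicate block, a gene-length offset (loess, span 0.3), both, and each library left out. Each library was taken as 1 sample, and p values measure the spread between these samples. The fits were checked on counts simulated with 200 genes of known fold change.

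Named members were the 3 per cluster with the highest counts, the 3 with the smallest p, the C-type members and *Pcdhb1*. *Pcdhb6*, *Pcdhb7*, *Pcdhb9*, *Pcdhb11*, *Pcdhb14* and some segments were named after their values were seen. The members and lists were chosen with earlier results of these data known. Segments were planned to hold 1 first exon each, and several hold more.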

Additional observations from a re-analysis of the deposited data

Results flagged for a closer look

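In 110 groups of 4 libraries, over the members and segments, 5 had a single library whose gap to the nearest other exceeded Dixon's 95% critical value, and chance alone gives about 1 in 20 groups. *Pcdhb9* had 176 normalized counts in control replicate 4, where the other 3 controls had 96.2 to 110. *Pcdhb22* had 196 in the same library, below the 293 to 310 of the other 3. *Pcdhb19* had 694 in *Fezf2 shRNA* replicate 2 and 836 to 850 in the others. The downstream *Pcdha11* segment had 563 in *Fezf2 shRNA* replicate 3 and 413 to 432 in the others. The *Pcdhga12* segment had 723 in control replicate 1 and 669 to 672 in the other 3 controls.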

How the results depend on the processing

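No member of the 3 clusters passed the threshold under any alternative tried, although DESeq2 gave no adjusted p for *Pcdhb8* and *Pcdhb9*. The log2 ratio of the whole alpha interval was 0.17 to 0.28 over the scalings and libraries left out, that of the beta sum -0.17 to -0.04 and that of the gamma interval -0.02 to 0.06. Counts of 76 to 886 per library for the beta genes other than *Pcdhb1*, with standard errors of 0.0986 to 0.285, limit what could be detected. Of all genes over 8 CPM, 208 passed the threshold, 752 with DESeq2, 84 with over 1 CPM, 103 with no filter, 2 with the gene-length offset and 0 (without control replicate 1) to 368 (without control replicate 2) when libraries were left out. Alpha segments past the threshold numbered 1, and 2 with DESeq2, 0 with library totals or the gene-length offset, and 0 to 2 when libraries were left out. They were 2 without *Fezf2 shRNA* replicate 2, 1 without control replicate 2 and 0 in the other 6 fits. *Fezf2* passed only with DESeq2 (-0.28, adjusted p = 0.0256).

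Same-numbered samples of the treatments did not deviate together in every pair (correlations 0.31, 0.093, -0.13 and 0.17), so the numbers were not taken to pair them. With the replicate number as a block 90 genes passed over 8 CPM, 2 with block and gene-length offset, and 0 alpha segments in either (*Pcdha2* segment with the block, log2 fold change 1.01, adjusted p = 0.0784). Replicates 1 and 4 correlated best with their own number, and the others did not.

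Some log2 fold changes changed sign, in 15 of the 38 members tested with the gene-length offset (5 alpha, 4 beta and 6 gamma). Among them, *Pcdha9* and downstream *Pcdha11* were at 0.17 without it. With the offset alone and with the block, *Pcdha9* was at -0.015 and -0.014, downstream *Pcdha11* at -0.0040 and -0.0033, *Pcdhac1* at -0.0087 and -0.0047, *Pcdhb17* at 0.021 and 0.031, *Pcdhga3* at -0.15 in both, *Pcdhga8* at -0.11 in both and *Pcdhga9* at -0.10 in both. With library totals *Pcdhga3*, *Pcdhga8*, *Pcdhga9* and *Pcdhgc3* were at -0.017, -0.014, -0.020 and -0.0051. As libraries were left out, the lowest values were -0.023, -0.025, -0.034, -0.015, -0.010 and -0.011 for *Pcdhga3*, *Pcdhga8*, *Pcdhga9*, *Pcdhgc3*, *Pcdhgc4* and *Pcdhgc5*, and the highest 0.057, 0.061, 0.056, 0.074, 0.096 and 0.10. *Pcdhb17* ran from -0.18 to 0.0096 and the *Pcdhga9* segment from -0.29 to 0.024. The cause was not tested.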
